A study of Mus musculus with 14 samples.

Results

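The 705 distal intergenic MyoD regions of activated muscle stem cells (MuSCs) were 35.5% of the 1985 MyoD regions found in these cells by chromatin immunoprecipitation and sequencing (ChIP-seq). They were chosen by the peak lists themselves. Peaks of the 3 MyoD libraries were merged where they overlapped by at least 1 bp, regions with peaks from at least 2 libraries were kept, and a region was called distal when its highest-scoring peak was annotated as distal intergenic by the authors. Presence in the MyoD lists of activated cells, the score and the annotation therefore selected the members and are described without tests. The remaining 1280 regions lay in introns (699), at promoters (451), in exons (80) or in untranslated and downstream sequence (50).

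All mice were labelled wild-type and carried Pax7-Cre(ERT2), a tamoxifen-inducible recombinase expressed from the gene of the MuSC marker Pax7, with a mito-Dendra2 allele that marked recombined cells and their progeny with a fluorescent mitochondrial protein. All received tamoxifen (75 mg/kg daily for 5 days), then 50 µL of 1.2% BaCl2 in one tibialis anterior (TA) muscle and saline in the other. At 2 days post injury (dpi), Dendra2+ CD34- cells were sorted from injured muscle as activated stem cells (ASCs) and Dendra2+ CD34+ cells from saline-injected muscle as quiescent stem cells (QSCs). MyoD and MyoG were each profiled in 3 libraries per cell state, which made 12 ChIP libraries, named by cell state and antibody (such as ASC MyoD), and the 2 input libraries were not analysed here. The study describes the 3 libraries of a group as biological replicates. The age of the animals and how many stand behind each library are not given in the sources used here, and p-values measure the spread between these libraries. The QSC muscle was contralateral to an injury, and state, injury and the CD34 gate cannot be told apart.

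MyoD is a basic helix-loop-helix transcription factor that commits cells to the muscle lineage. With E-protein partners it binds E-boxes, short sequences written CANNTG, and prefers CAGCTG. MyoG, which acts later in differentiation, binds a similar sequence. Much MyoD binding in muscle cells is known to lie far from promoters, where enhancers act on genes that need not be the closest.

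The annotation of these regions was compared with RefSeq (GRCm38.p6, the build called mm10 elsewhere). Of the 705 regions, 540 overlapped no RefSeq gene body and 165 (23.4%) overlapped one. The overlapped genes were long noncoding RNAs (lncRNAs) only in 120 regions and included a protein-coding gene in 43. Among the 681 regions on chromosomes with RefSeq starts in the table used, 50 lay within 3 kb of a gene start and 14 contained one. The distal label thus depended on the gene models: the regions were distal in the authors' annotation, and a minority were not in RefSeq.

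The regions that contained a RefSeq gene start are the ones whose DNA sequence could be shown. The 14 regions held 15 starts, of 14 lncRNAs and the zinc finger gene Zfp869. The following windows run 5′ to 3′ on the strand of the gene, from 250 bases before to 50 bases after its RefSeq start, and are shown because they lie wholly inside a distal MyoD region. They are the 6 of highest rank among 11 such windows. Capitals mark CAGCTG and the E-box CACCTG, whose other strand reads CAGGTG.
Gm35227, chr9:62166253-62166552, plus strand: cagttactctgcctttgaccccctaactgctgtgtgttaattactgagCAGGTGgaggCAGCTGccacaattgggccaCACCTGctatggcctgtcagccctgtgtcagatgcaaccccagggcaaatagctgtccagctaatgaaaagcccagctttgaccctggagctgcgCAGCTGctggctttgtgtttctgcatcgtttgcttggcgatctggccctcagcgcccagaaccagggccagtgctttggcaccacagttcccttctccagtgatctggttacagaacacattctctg
Lincmd1, chr1:20669632-20669931, plus strand: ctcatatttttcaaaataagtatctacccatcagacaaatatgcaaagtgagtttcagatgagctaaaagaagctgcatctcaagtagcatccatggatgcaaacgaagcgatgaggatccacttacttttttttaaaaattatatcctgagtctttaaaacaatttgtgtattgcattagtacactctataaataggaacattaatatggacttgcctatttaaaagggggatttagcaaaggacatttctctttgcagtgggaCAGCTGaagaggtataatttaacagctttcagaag
Gm34346, chr10:98882688-98882987, minus strand: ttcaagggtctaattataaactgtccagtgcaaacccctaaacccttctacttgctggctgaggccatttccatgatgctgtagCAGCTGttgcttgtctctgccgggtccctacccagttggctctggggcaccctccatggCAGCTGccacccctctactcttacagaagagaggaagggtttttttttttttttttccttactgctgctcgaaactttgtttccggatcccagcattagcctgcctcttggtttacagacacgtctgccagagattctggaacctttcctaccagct
Gm33782, chr10:96308831-96309130, plus strand: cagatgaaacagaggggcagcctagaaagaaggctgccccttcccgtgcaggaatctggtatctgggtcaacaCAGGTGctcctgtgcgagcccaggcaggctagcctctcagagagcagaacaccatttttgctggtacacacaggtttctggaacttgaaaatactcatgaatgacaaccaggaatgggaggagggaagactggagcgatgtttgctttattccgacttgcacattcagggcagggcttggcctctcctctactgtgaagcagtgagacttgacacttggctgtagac
Gm52199, chr15:77015160-77015459, minus strand: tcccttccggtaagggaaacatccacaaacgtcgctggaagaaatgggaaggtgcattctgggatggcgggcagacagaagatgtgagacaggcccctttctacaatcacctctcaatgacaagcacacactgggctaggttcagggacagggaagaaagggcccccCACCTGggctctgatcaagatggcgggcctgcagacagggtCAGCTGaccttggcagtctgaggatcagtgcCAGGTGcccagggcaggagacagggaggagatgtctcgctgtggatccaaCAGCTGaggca
Gm8883, chr1:71887862-71888161, plus strand: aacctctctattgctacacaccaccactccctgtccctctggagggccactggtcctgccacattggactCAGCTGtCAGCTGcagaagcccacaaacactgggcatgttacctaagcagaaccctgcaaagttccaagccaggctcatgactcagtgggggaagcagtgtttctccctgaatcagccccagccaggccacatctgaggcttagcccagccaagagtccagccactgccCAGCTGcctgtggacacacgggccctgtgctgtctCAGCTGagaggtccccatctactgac

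CAGCTG was present in 10 of the 15 windows (66.7%). It was present in 65 of the 130 windows whose start lay inside a promoter-class MyoD region (50.0%) and in 16.3% of all 32851 RefSeq windows. CACCTG on either strand was found in 4 of 15 windows, in 38.5% of the promoter-class windows and in 20.2% of all windows. TGANTCA, the AP-1 motif, was in 4 of 15 windows against 7.69% of the promoter-class windows and 7.81% of all windows. TGTGGT, the RUNX core read on both strands, was in 6 of 15, 10.8% and 16.8%, and GGAATG, the TEAD motif read on both strands, was in 1 of 15 windows, 26 of the 130 and 14.7% of all. Intronic MyoD regions contained only 6 starts, and of their windows 3 held CAGCTG, 1 held CACCTG, 2 held TGTGGT, 1 held GGAATG and none held the AP-1 motif. Every one of the 15 windows held some CANNTG, the general form that takes in both named E-boxes, as did 72.3% of all windows. The general E-box, its CAGCTG form and the AP-1 motif read the same on both strands. The starts of Gm51532 and Zfp869 lie in 1 region, and their windows are nearly the same DNA read on opposite strands. The CAGCTG, AP-1 and TGTGGT matches there were therefore counted in both windows, which raises those counts. Of the 15 windows, 4 extend beyond their region. A letter match describes the sequence and does not show a bound site.

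The sequences come from very different loci. The Gm35227 window, with 2 CAGCTG and 2 CACCTG, lies in the region of highest rank of all 705, which the authors' annotation gave to Mir5133. Lincmd1 is linc-MD1, a muscle lncRNA whose RefSeq body (chr1:20669882-20682958) contains the muscle microRNA genes Mir206 and Mir133b. Its region, chr1:20669502-20670252, had scores of 175, 159 and 139 in ASC MyoD replicates 1, 2 and 3, a narrow range for these regions. The start of Lincmd1 was 5.00 bp from the centre of the region, and CAGCTG began 15 bases after the start. Mir206 itself began 8.76 kb and Mir133b 12.52 kb beyond the region, and a second distal region, chr1:20667234-20668420, lay 1.46 kb from the Lincmd1 start with scores of 117, 121 and 229. The Gm52199 region, chr15:77014578-77015628, was given to Mb, the gene of the oxygen-binding protein myoglobin. It had no peak in replicate 1 and scores of 66.04 and 158 in replicates 2 and 3, and it reached into the RefSeq body of Mb. The 14 regions that contained a start had a median mean score of 92.4 (range 61.5 to 439) and the other 691 one of 81.6 (range 50.7 to 387).

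A score is the authors' value of minus 10 times log10 of the p-value of a peak, and it grows with sequencing depth as well as with enrichment. The lowest score in any list was 50.0, or a p-value of 1e-05. Distal regions had scores close to those of the rest of the MyoD regions. Their median mean score was 81.7 (quartiles 68.0 to 108) and that of the other 1280 regions was 82.5 (67.6 to 109). Peaks were present in all 3 libraries for 394 distal regions (55.9%) and for 713 other regions (55.7%). Median widths were 969 and 993 bp. The highest mean scores in the series belonged to other classes, at 645 for a promoter region and 542 for an intronic one, against 439 for a distal region.

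Libraries agreed on distal regions to a moderate degree. Replicate 1 held a peak at 643 of the 705 regions, replicate 2 at 579 and replicate 3 at 582, with median scores of 89.7, 83.1 and 78.8. Over the 394 regions present in all 3 lists, Spearman's rho of the scores across regions was 0.574, 0.598 and 0.574 for the 3 pairs of libraries, where the points share their libraries and the list threshold. The score was highest in replicate 1 at 197 of these regions, in replicate 2 at 115 and in replicate 3 at 82, and its coefficient of variation between libraries had a median of 23.6% (quartiles 15.5 to 33.4%).

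At the edge of the rule, the members of lowest mean score among those found in 2 libraries were given to Platr27 (50.7), Npl (50.8) and Spata19 (51.7). Just outside it, 773 further distal regions had a peak in 1 library only. The highest-scoring of these were given to Smlr1 (177), Gm5614 (159) and Hhat (146), and 83 of the 773 reached a score of 80. Some regions left out thus had larger scores than many members.

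The 12 regions of highest rank had peaks in all 3 libraries and mean ranks of 97.7 to 99.6, where a rank is the percentile of the score within its list. The first was chr9:62165798-62166992, given to Mir5133, with scores of 531, 402 and 384 (mean 439 ± 80.3, SD, n = 3). Its nearest protein-coding gene, Glce, which modifies heparan sulfate, was 43.2 kb away. The next was chr1:134244620-134246133, given to Adora1, an adenosine receptor gene 9.16 kb away, with scores of 389, 398 and 374 (387 ± 12.0). These 3 values hardly differed, and the same region lay 43.9 kb from Myog, the gene of MyoG, and 43.4 kb from Mybph, which encodes a myosin-binding protein. The region given to the aspartyl-tRNA synthetase gene Dars (chr1:128444127-128445188) had scores of 307, 438 and 385, and another region 78.4 kb from Cxcr4, a chemokine receptor gene of the same neighbourhood, had 203, 185 and 128. The region given to Qk (chr17:10023936-10025933) had 346, 374 and 332 and lay 181 kb from that gene, which encodes an RNA-binding regulator of splicing.

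The other 8 of the 12 had mean scores between 272 and 320. They were given to Gm5160, Gm26416, Sik1, Mrps23, Ube2d1, Sec61b, Exoc7 and Slc6a6. Sik1 encodes a salt-inducible kinase, and its region, 52.6 kb away, had scores of 376, 227 and 279. Mrps23 encodes a protein of the mitochondrial ribosome, and its region (307, 219 and 397) contained the start of the lncRNA Gm38534. Ube2d1 encodes a ubiquitin-conjugating enzyme, and its region (290, 260 and 267) lay 6.57 kb from it and 53.6 kb from Tfam, a transcription factor of mitochondrial DNA. Slc6a6 encodes a taurine transporter, and its region (231, 295 and 292) lay 62.9 kb away. Peak positions do not say which gene a region acts on.

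**Figure D1:**
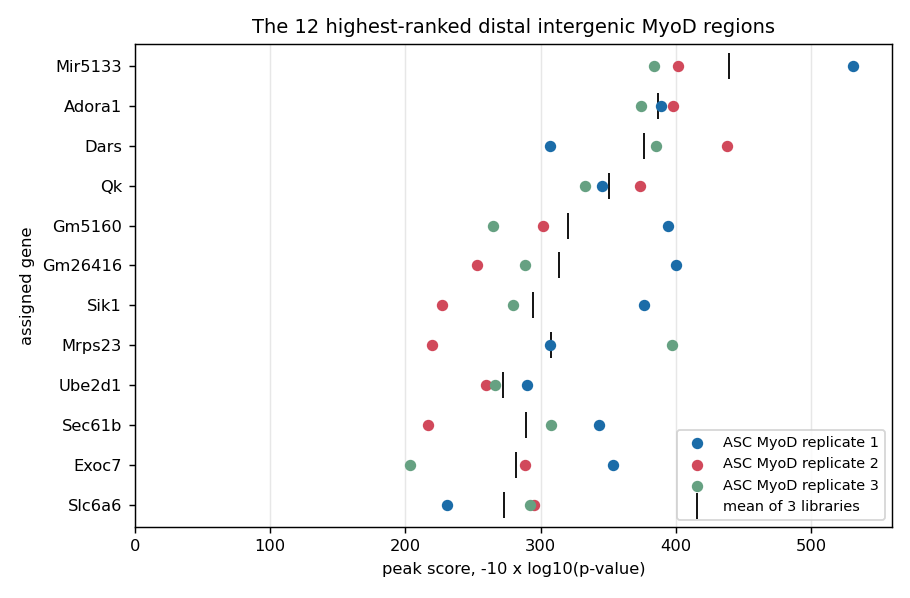
Peak scores of the 12 highest-ranked distal regions (x axis, minus 10 times log10 of the p-value) in the 3 ASC MyoD libraries (coloured points), with their mean (black bar), by assigned gene (y axis). The Mir5133 region has the highest mean, 439, and the 3 values of the Adora1 region, 374 to 398, lie closest together.

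Distances from distal regions to genes were broad. The nearest listed RefSeq gene start was a median of 25.4 kb away (quartiles 9.53 to 56.9 kb, n = 681). From any listed start, 80 regions were more than 100 kb away. The set of starts used lacks some genes, so distances to starts are upper bounds. The region given to Gem, for example, lay 11.9 kb from the Gem body but 894 kb from a listed start. The nearest protein-coding gene body was a median of 32.5 kb away (quartiles 9.82 to 88.5 kb, n = 705), and 155 regions lay more than 100 kb from one. The assigned gene was protein-coding for 491 regions (69.6%), and it was the nearest protein-coding gene for 467 (66.2%). Regions were spread over 618 assigned genes, of which 554 had 1 region, 47 had 2, 13 had 3 and 4 had more.

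The distal peaks of the 12 lists, members or not, were then compared for distance. The median distance to the nearest listed RefSeq start was 26.4, 25.7 and 25.4 kb in the ASC MyoD libraries. It was 65.4, 60.6 and 58.2 kb in the ASC MyoG libraries, so these groups did not overlap. It was 38.9, 38.6 and 54.1 kb in QSC MyoD and 77.2, 69.0 and 100 kb in QSC MyoG. These medians are upper bounds too, since some starts are missing. The difference of ASC MyoD from ASC MyoG was -1.25 on the log2 scale, and that from QSC MyoD was -0.75. Each gave p = 0.1 by the exact two-sided permutation test of libraries, the smallest p that 3 against 3 allow, and 0.15 after Benjamini-Hochberg adjustment over the 6 tests of the report. Measured to protein-coding gene bodies, an alternative added after the data were seen, the difference from ASC MyoG was -0.90 and that from QSC MyoD only -0.08 (exact permutation p = 1). Distal peaks of the other 9 lists also had lower scores, with medians of 53.1 to 57.9 against 68.1 to 75.2 in ASC MyoD, and the part of the score in the distances was not tested.

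**Figure D2:**
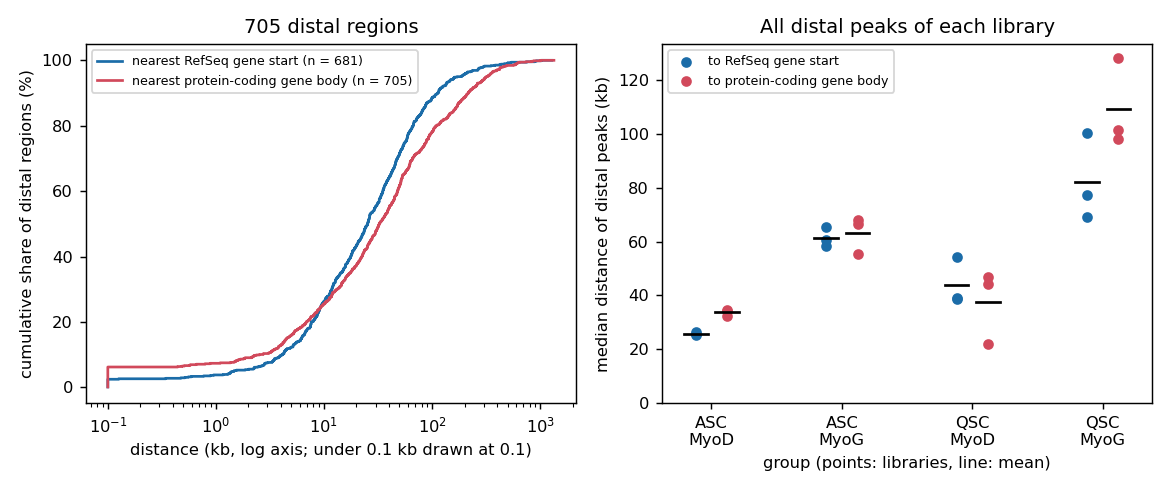
Left, cumulative share of the distal regions (y axis, percent) by distance (x axis, kb, log axis) to the nearest listed RefSeq gene start (blue) and to the nearest protein-coding gene body (red). Right, median distance of all distal peaks (y axis, kb) in each library (points) with the group mean (line). The ASC MyoD libraries lie lowest for gene starts, at 25.4 to 26.4 kb, while QSC MyoD reaches down to 21.9 kb for gene bodies.

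Few distal MyoD regions carried a peak in any of the other 9 libraries. A peak in at least 1 ASC MyoG library was found at 25 of 705 distal regions (3.55%), where 3.73% of all 1985 MyoD regions had one. In QSC MyoD libraries the count was 2 regions (0.284%, against 0.453% of all MyoD regions) and in QSC MyoG libraries 4 regions (0.567%, against 0.504%). These shares were near those of the MyoD regions as a whole. In all, 29 regions had a peak in another library and 676 had none. Absence from these lists is absence of a call, since the lists of the other groups were much shorter (120 to 916 peaks against 2262 to 2652) and their read depth is unknown.

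The share of distal regions with a peak was 1.70, 1.56 and 1.28% in the ASC MyoG libraries (mean 1.51 ± 0.217%, SD, n = 3). It was 0.142% in each QSC MyoD library, and 0, 0.426 and 0.284% in the QSC MyoG libraries (mean 0.236 ± 0.217%). ASC MyoG thus lay above both QSC groups without overlap, by 1.37 percentage points over QSC MyoD and by 1.28 over QSC MyoG. Both differences gave p = 0.1 by the exact two-sided permutation test (adjusted 0.15), which no larger difference could lower. QSC MyoD and QSC MyoG differed by -0.0946 percentage points (exact permutation p = 0.7). The lists also differed in length, from 605 to 916 peaks in ASC MyoG and from 120 to 174 in the QSC groups. Of the peaks in each list, 1.42, 1.82 and 1.41% lay on distal regions in ASC MyoG replicates 1, 2 and 3. The values were 0.585, 0.719 and 0.575% in QSC MyoD and 0, 1.85 and 1.20% in QSC MyoG. By this measure ASC MyoG and QSC MyoG overlapped. The part of list length in the shares of regions was not tested. Within a library the difference between distal and other MyoD regions averaged -0.0380 percentage points over the 9 libraries (range -0.442 to 0.296), was positive in 4 of 9, and gave p = 0.613 in the exact sign-flip permutation test (adjusted 0.7). It was -0.148 (p = 0.0938 in the same exact test) without the region given to Gm9075, and it turned to 0.259 at a score of at least 80 in all lists. The group averages were 0.00259 for ASC MyoG, 0.0281 for QSC MyoG and -0.145 for QSC MyoD, with exact sign-flip permutation p-values of 1, 1 and 0.25.

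**Figure D3:**
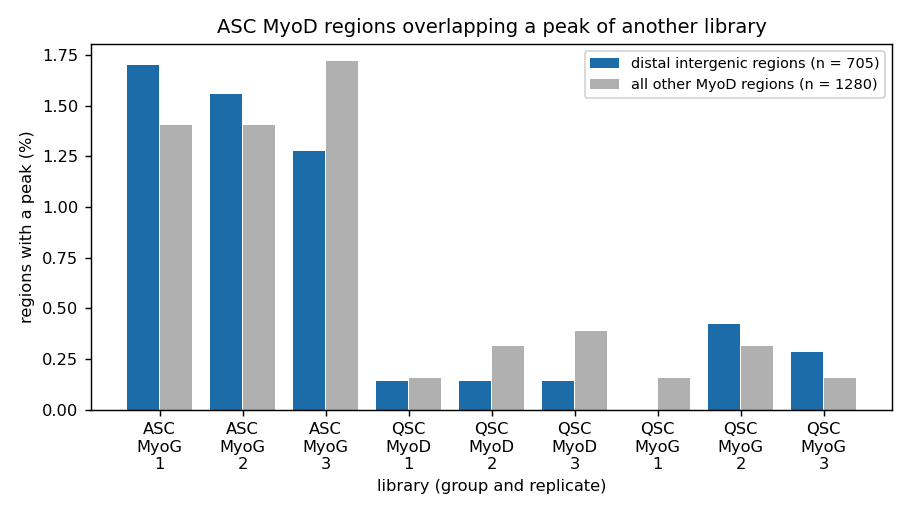
Share of ASC MyoD regions that overlap a peak (y axis, percent) in each of the 9 other libraries (x axis), for the 705 distal regions (blue bars) and the 1280 other regions (grey bars). The ASC MyoG bars reach 1.28 to 1.72% and all QSC bars stay at or below 0.426%.

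The distal regions shared with MyoG in activated cells included several of the highest-ranked distal regions. The 25 regions with an ASC MyoG peak had a median MyoD rank of 83.3 and the 680 without one a median of 54.2. Whether the other MyoD regions differ in the same way was not tested. At the Mir5133 region ASC MyoG replicate 2 had a peak of score 71.3, at the Qk region replicate 3 had one of 69.0, and at the Sec61b region replicate 2 had one of 97.0. The region given to Gm26416, 16.3 kb from Dap, had ASC MyoG scores of 53.3 in replicate 1 and 85.5 in replicate 2. The region given to Zbtb18, a transcriptional repressor gene 104 kb away, had 70.9 in replicate 1 and 129 in replicate 3, and the region given to Gm23907 had 69.3 and 59.3 in replicates 1 and 3. Of the 25 regions, only 5 had a peak in at least 2 ASC MyoG libraries, and all others rested on 1 MyoG library. At the Adora1 region near Myog the only other call was in QSC MyoG replicate 2, with a score of 86.4, and no ASC MyoG library listed a peak there.

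A pair of regions stood apart in having peaks in every ASC MyoG library. The region given to Gm9075 (chr12:3109517-3110638) had ASC MyoD scores of 87.2 and 91.9 in replicates 2 and 3, with no peak in replicate 1, and ASC MyoG scores of 197, 135 and 139. It was also called in QSC MyoD replicates 2 and 3 (59.65 and 59.97) and QSC MyoG replicates 2 and 3 (65.6 and 75.4), so 7 of the 9 other libraries listed it and it supplied 4 of the 8 QSC peaks found at distal regions. The region given to 4932411N23Rik on chromosome X had ASC MyoD scores of 71.2 and 81.5 in replicates 1 and 2, and ASC MyoG scores of 117 and 165 (both in replicate 1), 179 and 103. The peak of 165 overlapped the region by only 87 bp, with its centre 1907 bp away. At both regions the ASC MyoG scores exceeded the ASC MyoD scores, but scores of different antibodies and of unknown depth do not compare binding. The remaining QSC calls were at regions given to Gm11605 (QSC MyoD replicate 1, 99.8), A930001A20Rik (QSC MyoG replicate 2, 50.1), Tshz1 (QSC MyoG replicate 3, 51.4) and Adora1.

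Among regulators of the muscle lineage, distal regions lay near Myod1, Mef2a and Myog. A list of 36 myogenic transcription factors had 6 genes with an assigned distal region: Myod1 (3 regions), Mef2a (2), Mef2c (2), Id2, Tead1 and Runx1 (1 each). Of all 21900 RefSeq protein-coding genes 423 (1.93%) had one, and 4.29% had a MyoD region of another class, as 11 of the 36 did. These counts, like those of the lists that follow, rest on the authors' assignments and are descriptions. Myod1 is known to be controlled by enhancers far upstream. Its 3 regions lay 22.5, 25.6 and 27.0 kb from the gene body, with scores of 154, 73.3 and 98.0 at chr7:46352821-46353939, of 110, 247 and 129 at chr7:46349729-46350895 and of 240, 130 and 76.0 at chr7:46348425-46349445. The order of the 3 regions changed from library to library. The middle one also had a peak in ASC MyoG replicate 2 (54.0). Further regions at 34.3, 58.8 and 60.2 kb were given to Otog, a gene of the inner ear that adjoins Myod1, and the nearest of them formed a group of 4 distal regions over 12.7 kb with the Myod1 regions. Mef2a, which encodes a partner of MyoD at muscle genes, had a region 8.31 kb away with scores of 289, 276 and 209 (chr7:67384763-67386253) and one at 38.1 kb with 101, 87.3 and 86.2. The regions of Mef2c, at 296 and 427 kb, and of Id2, at 172 kb, scored lower, with means of 72.1, 59.3 and 53.2.

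**Figure D4:**
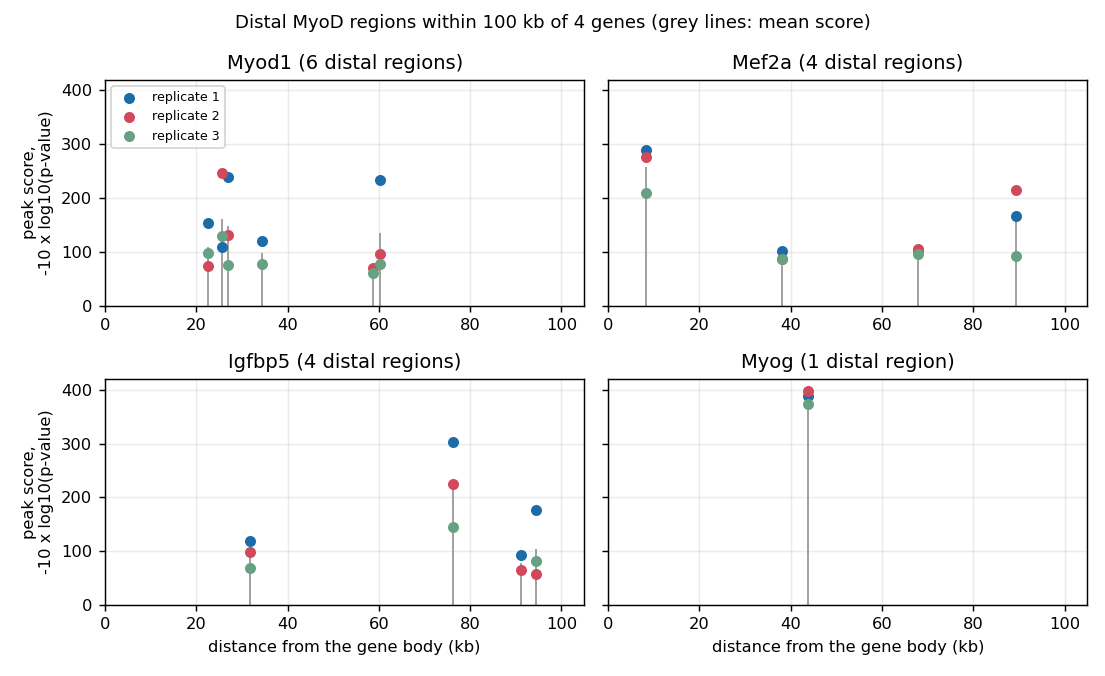
Scores of distal regions (y axis, minus 10 times log10 of the p-value) by distance from the gene body (x axis, kb) within 100 kb of Myod1, Mef2a, Igfbp5 and Myog, with the 3 ASC MyoD libraries as coloured points and the mean as a grey line. The 6 regions near Myod1 lie between 22.5 and 60.2 kb away, and the single region near Myog, at 43.9 kb, reaches 374 to 398.

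Sarcomere and contraction genes had 6 of 45 genes with an assigned distal region, each with 1, and 13 with regions of other classes. The region of Myh8, the neonatal myosin heavy chain gene, lay 4.86 kb away with scores of 99.95 and 101 in replicates 1 and 3 and no peak in replicate 2. That of Des, which encodes the intermediate filament desmin, lay 14.9 kb away with 118, 93.7 and 67.3. That of Myl1, a myosin light chain gene, lay 1.61 kb away with 68.3 and 77.1 in replicates 2 and 3. The others were Mb, Myh3, the embryonic myosin heavy chain gene (151, 78.7 and 52.5, at 3.09 kb), and Lmod2, which encodes a protein of actin filament ends (62.7, 52.8 and 109). Of the 22 genes of calcium handling, Sln, which encodes an inhibitor of the calcium pump (51.0, 84.5 and 80.8), and Camk2g, a calcium-dependent kinase gene (82.9, 125 and 63.7), had 1 each. MyoD regions of other classes were given to 8 of the 22. The distal regions of both lists had middling scores, and those of Myh8, Myl1 and Mb were each missing from 1 library.

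Some surface, matrix and signaling genes had an assigned distal region, as did 1.93% of all RefSeq protein-coding genes. MyoD regions of other classes were given to 8 adhesion and fusion genes, 4 matrix genes, 6 Notch and Wnt genes and 4 growth factor genes. Of all RefSeq protein-coding genes, 4.29% had a region of another class. In the adhesion and fusion list (30 genes), Dag1, the gene of dystroglycan, had 2 regions, of which that at 10.2 kb had scores of 164, 133 and 133, and Cdon and Dock1 had 1 each, at means of 58.9 and 76.3. In the matrix list (35 genes), Timp2, an inhibitor of metalloproteinases, had 82.7, 88.0 and 106 at 9.45 kb, Col6a3 had 106, 72.4 and 101, and Col5a2 a mean of 55.1. Among 33 genes of the Notch and Wnt pathways, the region of Heyl, a Notch target gene, had 101.7, 97.2 and 107 at 4.62 kb, that of Rbpj, the DNA-binding factor of Notch signaling, had 122 and 70.4 in replicates 1 and 3, and those of Fzd7 and Tcf7l2 had means of 59.6 and 53.8. Of 31 growth factor genes, Fgfr4, a fibroblast growth factor receptor gene, had the strongest region, 2.36 kb away (chr13:55171122-55172544), with 329, 219 and 261. Igfbp5, which encodes a binding protein of insulin-like growth factors, had 119, 98.7 and 68.5 at 31.8 kb.

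Further lists had at most 5 genes each with an assigned distal region, where 1.93% of all RefSeq protein-coding genes had one. Of 30 cell cycle genes Cdk1 (61.4 and 74.6 in replicates 2 and 3) and Gadd45b (51.8 and 52.5 in replicates 1 and 3) had a region, of 29 cytokine and receptor genes Lifr (94.5, 85.0 and 95.2) and Cxcl12 (55.4 and 66.9 in replicates 1 and 2), and of 24 AP-1 and early response genes Fos (129, 93.9 and 68.1, at 20.2 kb). The Lifr region overlapped the RefSeq body of Lifr. Mitochondrial regulators had 5 of 28 genes: Mrps23, the complex I gene Ndufa10 (74.4, 181 and 139, at 95.0 kb), Coq8a of coenzyme Q synthesis (62.0 and 88.1 in replicates 2 and 3), Tomm20 of the outer membrane import pore (89.2 and 60.5 in replicates 2 and 3) and Mcu, the mitochondrial calcium channel (59.9 and 67.9 in replicates 1 and 3). None of the 35 genes of the TGF-beta and BMP list or the 15 of the acetylcholine receptor list had an assigned distal region. At the 1.93% of all genes, lists this short would hold few or none, so this absence is near that share. MyoD regions of other classes were given to 4 and 5 of their genes, respectively, against 4.29% of all RefSeq protein-coding genes. Of 24 markers of macrophages, endothelium and fibroblasts, Cdh5 alone had an assigned distal region, and Pecam1, Tek and Vwf had regions of other classes. The 416 genes of the 14 lists together received 46 distal regions (6.52%), with a median rank of 52.4 against 55.0 for all 705. By list, the share was higher among distal than other MyoD regions for myogenic transcription factors (1.42% against 1.17%) and AP-1 genes (0.142% against 0.0781%). The same held for cytokines and receptors (0.284% against 0%) and for markers of macrophages, endothelium and fibroblasts (0.709% against 0.3125%). All remaining lists took a smaller share of the distal regions, such as sarcomere and contraction genes (0.851% against 1.33%).

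The gene named by the annotation misses neighbours, so genes within 100 kb of a distal region were also counted. This held for 1427 of 21900 RefSeq protein-coding genes (6.52%) and for 72 of the 416 list genes (17.3%). The share was 15 of 45 for sarcomere and contraction genes, 8 of 28 for mitochondrial regulators, 7 of 29 for cytokines and receptors, 7 of 35 for the matrix, 4 of 22 for calcium handling, 6 of 33 for Notch and Wnt, 6 of 36 for myogenic transcription factors, 4 of 30 for adhesion and fusion, 4 of 30 for the cell cycle, 4 of 31 for growth factors, 3 of 35 for TGF-beta and BMP, 2 of 24 for AP-1, 1 of 15 for the acetylcholine receptor and 1 of 24 for markers of macrophages, endothelium and fibroblasts. The lists were written with earlier results of these data known, long genes reach more regions, and neighbours share them, so these shares are descriptions. The 5 Myh genes near distal regions, for example, rested on 3 regions of the myosin heavy chain cluster. Of the genes reached only in this way, named after their values were seen, Tpm1 (a tropomyosin gene, 64.2 kb from a region of 108.8, 122.5 and 84.5) and Neb (nebulin, 51.6 kb from one of 160, 169 and 118) belong to the sarcomere, and Igf2, a growth factor gene, lay 49.2 kb from a region given to its neighbour H19 (192, 253 and 64.8).

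**Figure D5:**
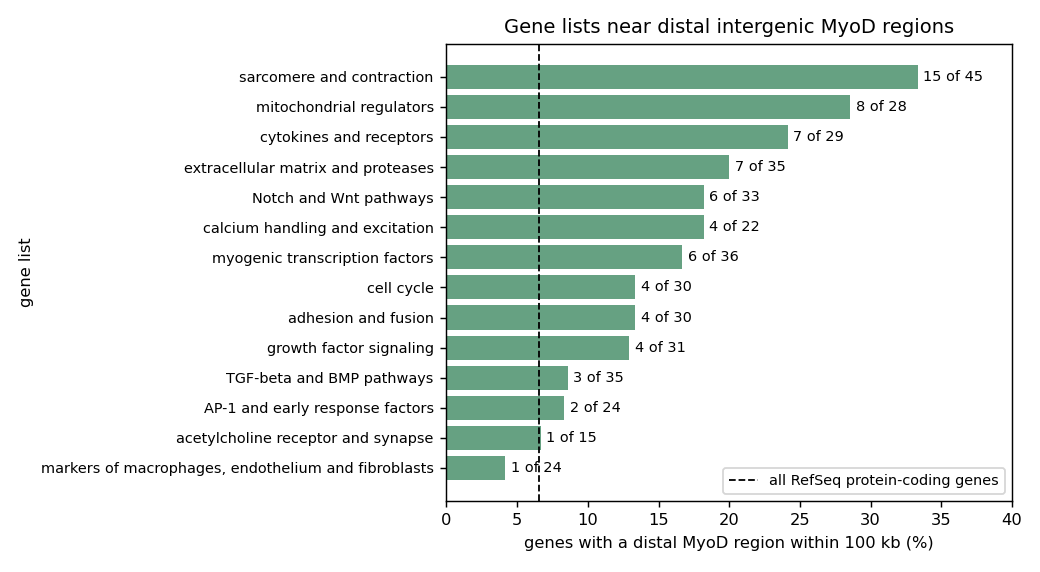
Share of the genes of each list with a distal MyoD region within 100 kb of the gene body (x axis, percent), with counts beside the bars; the dashed line is the 6.52% of all RefSeq protein-coding genes. The bar for sarcomere and contraction genes is the longest, at 15 of 45. That for markers of macrophages, endothelium and fibroblasts, at 1 of 24, lies below the line, and that for AP-1 genes, at 2 of 24, above it.

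The genes given the most distal regions were Cdh5 and Rreb1 with 5 each, and Rhob and Tnp1 with 4 each. Cdh5 encodes VE-cadherin of endothelial cells, yet its regions lay 350 to 606 kb from it in a long stretch without nearer protein-coding genes, and their mean scores ran from 57.6 to 113. Rreb1, a zinc finger transcription factor gene, had regions at 85.6 to 158 kb, of which that at chr13:37691620-37692773 had scores of 269, 220 and 271 and another, at chr13:37666192-37667331, had 149, 127 and 176 with an ASC MyoG peak of 65.9 in replicate 1. The regions of Rhob, a small GTPase gene, lay 46.3 to 62.6 kb away within 17.5 kb, with mean scores of 87.6 to 127. Tnp1 encodes a protein of sperm chromatin. Its strongest region (chr1:72951183-72952516, 304, 224 and 145) lay 62.6 kb from Tnp1 and 76.3 kb from Igfbp5, and 3 of the 4 were within 100 kb of Igfbp5.

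Distal regions mostly stood alone. There was no other MyoD region within 12500 bp of 624 of the 705 (88.5%), and 81 (11.5%) were in such groups, as were 13.5% of the other MyoD regions. The median gap to the nearest MyoD region was 206 kb, and 176 kb for the other classes. Groups with at least 2 distal regions numbered 31, of which those of Myod1 with Otog and of Rhob held 4, and those of Plet1 and Igsf3 held 3. Among 37 neighbouring pairs of distal regions, the largest summed mean scores were 351 for a pair given to Gm5091 (gap 216 bp, means 74.3 and 277), 351 for a pair given to Slc6a6 (gap 608 bp, 78.0 and 273) and 347 for a pair given to Otos (gap 3819 bp, 157 and 190). In the first and second pair a strong region had a weak neighbour, and in the third both were strong.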

How the data were processed

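The titles of the samples gave the groups and the replicate numbers. Mouse MuSC chromatin was fixed in 1% formaldehyde, sheared to about 500 bp and precipitated with MyoD or MyoG antibody. The deposited files are 1 peak list per ChIP library, and the authors gave each peak a start and end (other units, in bp), an assigned gene, an annotation and a score, minus 10 times log10 of its p-value. The submitters' processing notes name BWA 0.7.5, MACS, deepTools 3.5.0 and build mm10. How input was used and which gene models were applied are not given in the sources used here. The lists hold no read counts, so depth is unknown. Of 715 ASC MyoD peaks annotated within 1 kb of a start whose gene had a RefSeq start, 65.7% lay within 1 kb of it.

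Regions, overlaps and distances were computed in Python 3.11.15 with pandas 2.3.3, and these steps were tested on simulated lists. Distances run from the region's edge to the nearest RefSeq start or gene body. The table of starts has none on chromosome 18 and lacks some genes. Libraries were the replicates in exact two-sided permutation and sign-flip tests, with a threshold of 0.05. The members and gene lists were chosen with earlier results of these data known. Named were the 12 regions of highest rank, genes with at least 4 regions, up to 4 regions per list, regions shared with most other libraries, regions at the rule's edges and the 3 strongest pairs. The planned comparison of E-box shares between libraries was not run, since no genome sequence was used here. The alternatives were a score of at least 80, peaks in all 3 libraries, gaps of up to 500 bp, stricter distal classes, an overlap of 50%, pairing by number and leaving out libraries. After the data were seen, leaving out the Gm9075 region, leaving out regions within 3 kb of a RefSeq start, keeping chromosome 18 in the distance alternatives, and distances to gene bodies were added.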

Additional observations from a re-analysis of the deposited data

How the results depend on the processing

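Comparisons of 3 libraries against 3 could not pass 0.05, so their p-values say nothing about stability. The count of 705 distal regions fell to 308 at a score of at least 80 and to 394 with peaks in all 3 libraries, ranged from 455 (without ASC MyoD replicate 1) to 518 when 1 ASC MyoD library was left out, and was 655 without regions within 3 kb of a RefSeq start (631 when the 24 regions of chromosome 18, which has no start in the table, were left out too). The 29 regions with a peak in another group became 8 at a score of at least 80 and 26 to 27 when an ASC MyoD library was left out.

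In the share of distal regions with a peak, the excess of ASC MyoG over QSC MyoD kept its direction in all 18 alternatives. It was 0.974 to 1.95 percentage points, and 1.28 to 1.76 when a library was left out. The excess over QSC MyoG kept its direction too (0.866 to 1.78, and 1.16 to 1.61 when a library was left out). Some of these alternatives could not turn either excess. The replicate block leaves a mean difference unchanged, and leaving out a library of compared groups that do not overlap keeps its sign. None of the alternatives adjusted for list length. The difference of QSC MyoD from QSC MyoG turned to 0.0663 for regions at least 10 kb from a TSS, which also left out chromosome 18, was 0 with chromosome 18 kept, and ranged from -0.213 to 0 (without QSC MyoG replicate 2) when a library was left out. The difference of distal from other regions turned to 0.259 at a score of at least 80 and to 0.0164 at least 10 kb from a TSS (0.0274 with chromosome 18 kept), and ranged from -0.182 to 0.0125 (without ASC MyoG replicate 3) when a library was left out. The cause of the other turns was not tested. Without the Gm9075 region the 4 differences were 1.33, 1.23, -0.0947 and -0.148 percentage points, and 28 regions had a peak in another group. The log2 distance differences kept their sign in 9 alternatives each, from -1.29 to -0.90 for ASC MyoG and from -0.83 to -0.08 for QSC MyoD (-1.29 to -1.20 and -0.83 to -0.59 when a library was left out). Here too the replicate block and the left-out libraries could not turn the sign, since the compared groups did not overlap.

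The labels do not say whether same-numbered libraries share animals. Correlations of deviations were -0.0122 to 0.00667 for same-numbered and -0.0108 to 0.00743 for other libraries of different groups, so the lists gave no basis for pairing and cannot show whether animals were shared. With the replicate block the differences were by construction still 1.37, 1.28 and -0.0946 percentage points and -1.25 and -0.75 on the log2 scale. Their exact sign-flip permutation p-values were 0.25 to 0.75. The smallest p that this test allows with 3 pairs is 0.25, so no call could change. The E-box comparisons and their alternatives were not run. Depth is unknown, which limits what an absent peak means.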
